A study of Mus musculus with 4 samples.

Results

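Amino acid transporters of kidney and leukocytes were followed across the cell types of the aged mouse kidney and compared between mice given BPTES, a glutaminase inhibitor, and mice given vehicle. The 38 genes are amino acid carriers of the Slc1, Slc3, Slc6, Slc7, Slc16, Slc36, Slc38 and Slc43 families, taken by symbol from a list, and all 38 were found among the 31053 mouse genes of the count tables. They are a part of these families. No measured value entered the rule, but the list was made with earlier results of these data known. Single-cell RNA-seq counted their transcripts as unique molecular identifiers (UMIs), each of which stands for 1 captured RNA molecule.

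All animals were male C57BL/6 mice, 19 months old, treated for 1 month with BPTES or with its vehicle, DMSO. Kidneys were dissociated with liberase and stained for the leukocyte antigen CD45, and each library pooled 20000 sorted CD45-negative with 9000 sorted CD45-positive cells before loading on a 10x GEM-X 3' v4 chip. There were 2 libraries per group. The ratio of leukocytes to other cells was therefore set by the sort. The labels do not say that the libraries came from separate animals, so the p-values measure only the spread between these libraries, which may be technical. With 2 libraries against 2, an exact permutation test of a single value could not go below p = 0.333.

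The proximal tubule takes back nearly all filtered amino acids. Sodium-coupled and exchange carriers in its brush border, such as Slc6a19 for neutral amino acids, the heterodimer of Slc3a1 with Slc7a9 for cystine and dibasic amino acids, and Slc1a1 for glutamate, bring them into the cell. Basolateral carriers return them to the blood, among them the exchangers Slc7a8 and Slc7a7, which need the heavy chain Slc3a2, and the uniporters Slc16a10 for aromatic and Slc43a2 for large neutral amino acids. Leukocytes take up glutamine, leucine and arginine through carriers such as Slc1a5, Slc38a1, Slc38a2, Slc7a5 and Slc7a1, and the stress factor ATF4 and the kinase complex mTORC1 respond to amino acid supply.

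The libraries held 249881074 to 297947661 UMIs. After filters on quality and removal of 3867 predicted doublets, 46738 of 76278 barcodes remained, 10849 to 12076 per library with a median of 12843 to 14800 UMIs. Any pair of libraries shared 90 to 114 barcodes, 0.503 to 0.618% of the smaller library. The cells fell into 56 clusters, made without the 38 carriers, and fixed markers gave names to all but 5 of them, making 20 classes. The 5 without a name held 2909 cells. A class name therefore stands for cells that resemble that type by markers. In 13 classes every marker was highest in the class named for it. The exceptions were the distal convoluted tubule with 5 of 6, the connecting tubule with 2 of 5, monocytes with 4 of 6 and dendritic cells with 5 of 7. Treatment was tested in 17 classes that had enough cells in every library, and 37 of the 38 carriers passed the filter on low counts in at least 1 of them. Slc7a10 passed in none.

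Levels across cell types came first. They are plain CPM, the UMIs of a gene per 1000000 UMIs of its class, given as the mean ± SD over the 4 libraries (n = 4), and they are a description with no test, since the classes were made from the same cells. Each gene is compared with itself across classes. The proximal tubule held the highest level of 11 of the 38 carriers, fibroblasts of 9 and innate lymphoid cells of 5. For 22 carriers the libraries of the highest class all lay above those of the next class, and for the other 16 the ranges overlapped. Over all genes with a UMI in these classes, 26.9% stood apart in this way.

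The brush-border carriers were mostly genes of the proximal tubule. The heavy chain Slc3a1 was at 196 ± 7.86 CPM there and 9.15 ± 4.12 CPM in the thick ascending limb, its next class. Its light chains Slc7a9 and Slc7a13, which exchange cystine with dibasic and with acidic amino acids, were at 149 ± 7.26 and 222 ± 43.7 CPM. Slc7a12, a related light chain, had only 1.90 ± 1.10 CPM, and its ranges overlapped with the thick ascending limb. Of the sodium-coupled carriers of neutral amino acids, Slc6a19 was at 204 ± 39.7 CPM, Slc6a18 at 55.0 ± 18.0 CPM and the imino acid carrier Slc6a20b at 146 ± 5.43 CPM, each with its nearest class far below. Its neighbour Slc6a20a had its highest mean in innate lymphoid cells, 17.2 ± 14.7 CPM, from libraries at 6.77, 33.4, 2.93 and 25.6 CPM, and 12.4 ± 1.18 CPM in the proximal tubule. The mature transcripts of the pair share sequence, 15.3% of the 50-base windows of Slc6a20a and 7.24% of those of Slc6a20b, so a split of reads between them is uncertain. The glutamate carrier Slc1a1 (183 ± 12.9 CPM), the proton-coupled Slc36a1 (48.2 ± 2.36 CPM), the basolateral Slc7a7 (303 ± 22.0 CPM) and the cationic and neutral carrier Slc38a4 (7.25 ± 2.36 CPM) were also highest in the proximal tubule. Markers of the tubule were also counted in the other classes, as free RNA is in droplet data. The median marker stood at 1.10 to 3.46% of its tubule level in the 16 other classes. Which part of a carrier's low level outside the tubule was such RNA was not tested.

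The other carriers were spread over stroma, vessels and leukocytes. The taurine carrier Slc6a6 was highest in endothelium, at 895 and 720.1 CPM under BPTES and 989 and 711 CPM under DMSO. Macrophages came next with 278 ± 16.8 CPM, below every endothelial library. Slc36a4, an amino acid carrier of the proton-coupled family, was also highest in endothelium with 53.5 ± 2.45 CPM. Fibroblasts led for the arginine carrier Slc7a2 (292 ± 147 CPM), where the libraries ranged from 141 to 494 CPM, and for the proton-coupled Slc36a2 (25.2 ± 4.74 CPM), which had 0.136 ± 0.272 CPM in intercalated cells, the next class. They also led for the glycine carrier Slc6a9 (10.5 ± 2.17 CPM), the glutamate carrier Slc1a3 (23.1 ± 10.6 CPM), the neutral exchangers Slc1a4 (6.16 ± 4.14 CPM) and Slc1a5 (112 ± 21.8 CPM), the uniporter Slc43a1 (22.5 ± 7.91 CPM), Slc38a10 (91.5 ± 7.20 CPM) and Slc7a10 (1.16 ± 0.676 CPM). For Slc6a9, Slc1a3, Slc1a4 and Slc1a5 the fibroblast range overlapped with the next class.

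Innate lymphoid cells held the highest level of Slc7a8, a basolateral exchanger in the tubule. Its 4 libraries there were at 657, 689, 674 and 517 CPM, all above the 153.5 to 318 CPM of the proximal tubule. The same class led for the glutamine carrier Slc38a1 (364 ± 31.2 CPM), the GABA and taurine carrier Slc6a13 (105 ± 8.78 CPM) and the betaine carrier Slc6a12 (13.7 ± 4.72 CPM), the last with overlapping ranges. The aromatic amino acid uniporter Slc16a10 was at 174 ± 9.57 CPM in monocytes and 167 ± 77.2 CPM in the proximal tubule, and these ranges overlapped. Slc43a2 was highest in intercalated cells, 593 ± 76.4 CPM, above every library of the proximal tubule (174 ± 30.5 CPM). The cationic carrier Slc7a1 was highest in B cells (104 ± 13.5 CPM), as was the lysosomal arginine sensor Slc38a9 (107 ± 12 CPM). T cells led for Slc7a5, the leucine exchanger of activated lymphocytes (27.1 ± 5.75 CPM), and for Slc7a6 (24.6 ± 1.48 CPM). NK cells led for Slc38a2 (318 ± 18.3 CPM), macrophages for the lysosomal Slc38a7 (19.2 ± 1.38 CPM), and principal cells for Slc38a3 (4.74 ± 1.89 CPM) and Slc38a6 (52.7 ± 12.6 CPM). The heavy chain Slc3a2 was within 1 CPM in plasma cells (267 ± 69.1 CPM) and endothelium (267 ± 23.3 CPM). Apart from Slc7a8, Slc38a1, Slc6a13, Slc43a2 and Slc38a9, none of the carriers named in these leukocyte and collecting duct sentences stood apart from its next class.

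**Figure D1:**
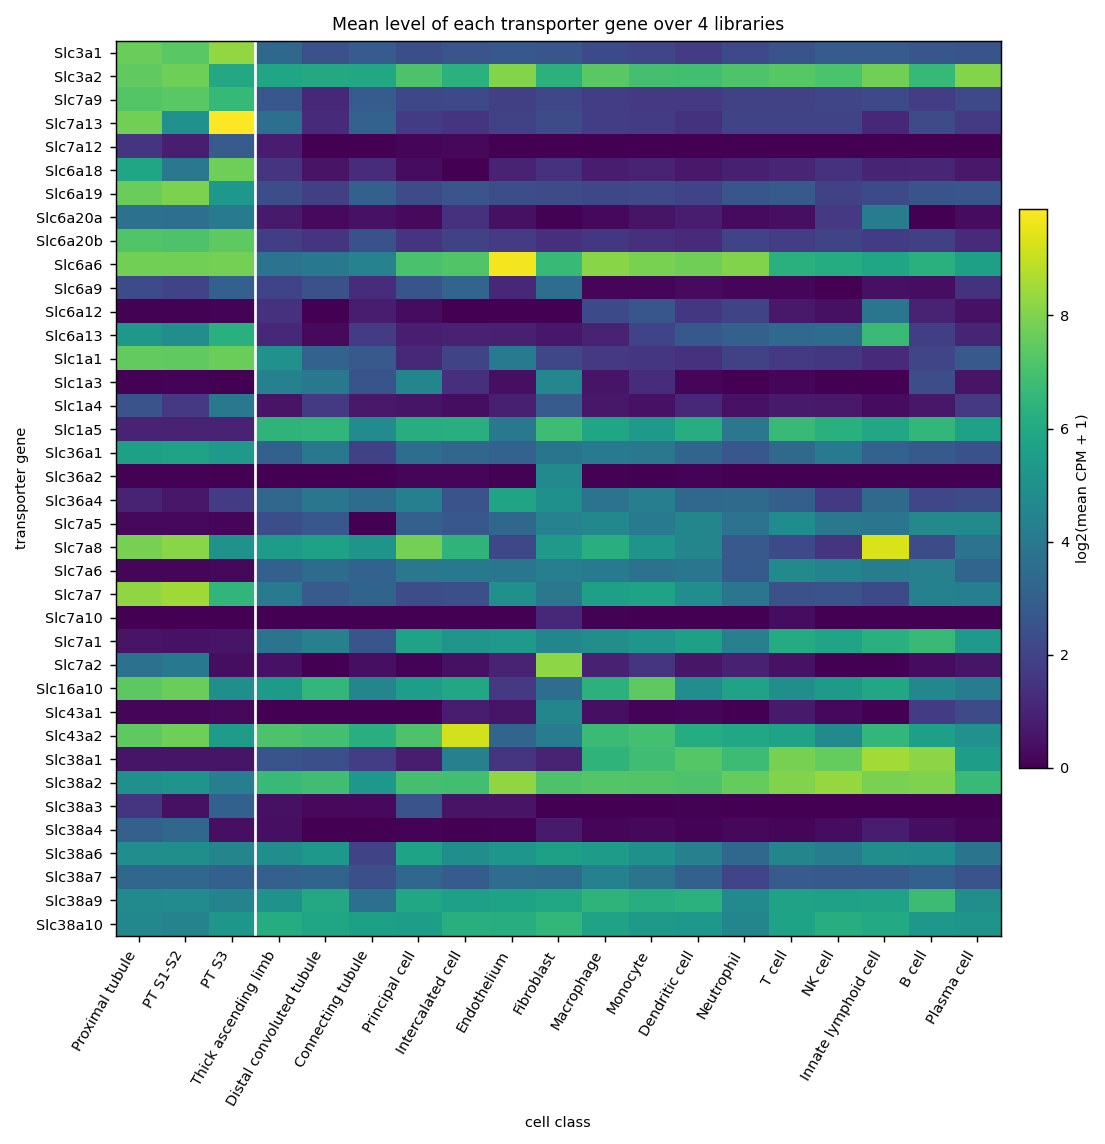
Heat map of the mean level of the 38 carriers, in rows grouped by role, in 17 cell classes and the early and late proximal tubule clusters, in columns, coloured by log2(mean CPM + 1) over 4 libraries. Slc3a1, Slc7a9 and Slc6a19 are bright in the proximal tubule columns, Slc6a6 peaks in endothelium and Slc7a8 in innate lymphoid cells.

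Within the proximal tubule the clusters were split by markers into early segments, called S1-S2, and the late straight segment, S3. The names rested on most but not all markers. The early marker Slc22a6 was higher in the S3 clusters, at 711 to 827 CPM against 123 to 152 CPM. Another, Slc22a8, overlapped between them, at 293 to 402 CPM in S3 and 260 to 308 CPM in S1-S2. The S3 marker Bcat1 was at 0 to 3.04 CPM in the S3 clusters. Of the 38 carriers, 9 were higher in S1-S2 and 11 in S3 with no overlap between the 4 libraries of each, and 18 overlapped. Over all 23653 genes with a UMI in either segment, 28.3% did not overlap. Slc6a19 was at 247 ± 39.8 CPM in S1-S2 and 38.1 ± 3.68 CPM in S3, and its neighbour Slc6a18 was the reverse, at 14.5 ± 5.36 and 205 ± 30.2 CPM. These genes lie 1.7 kb apart on chromosome 13, Slc6a18 at 73661750 to 73678023 and Slc6a19 at 73679745 to 73700780 (GRCm38). The cystine light chain Slc7a13 was at 31.4 ± 10.4 CPM in S1-S2 and 946 ± 89.8 CPM in S3, while Slc7a9 was at 162 ± 8.96 and 96.6 ± 10.1 CPM. The basolateral carriers were genes of the early segments: Slc7a8 had 278 ± 96.2 CPM there and 31.6 ± 8.97 CPM in S3, Slc7a7 359 ± 21.0 and 90.8 ± 20.3 CPM, Slc16a10 200.1 ± 91.6 and 29.3 ± 7.88 CPM, Slc43a2 208 ± 33.7 and 42.5 ± 8.05 CPM, and Slc3a2 208 ± 45.9 and 61.9 ± 7.57 CPM. Slc7a2 and Slc38a4 were also higher in S1-S2, and Slc3a1, Slc7a12, Slc6a20b, Slc6a9, Slc6a13, Slc1a4, Slc36a4, Slc38a3 and Slc38a10 in S3. With the segments apart, Slc38a3 was at 7.44 ± 2.31 CPM in S3, above its mean in principal cells. Slc1a4 was at 14.5 ± 2.21 CPM there, above its mean in fibroblasts. The S1-S2 mean of Slc16a10 was above its mean in monocytes.

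BPTES was then compared with DMSO within each class, with edgeR's quasi-likelihood test on UMIs summed per library and Benjamini-Hochberg adjustment over all genes of the class. From here on levels are CPM after TMM scaling, and fold changes are log2 of BPTES over DMSO. Of 399 pairs of a carrier and a class, 8 passed an adjusted p of 0.05, in the proximal tubule and in macrophages, 4 higher and 4 lower under BPTES. They belonged to 7 carriers. Over all genes 1.08% of pairs passed. At an unadjusted p under 0.05 there were 89 of the 399 pairs. In the proximal tubule these were 16 of 34 carriers, beside 3179 of all 15996 genes. In macrophages they were 13 of 30, beside 3787 of 14097 genes. The number that passed depended on the libraries: it was 13 without the first and 1 without the second BPTES library, where 1.52 and 0.337% of all pairs passed, and 26 and 21 without the first and second DMSO library, where 4.43 and 2.62% did.

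In the proximal tubule, the basolateral carriers Slc16a10 and Slc7a8 were higher under BPTES and the light chain Slc7a12 was lower. These were 3 of 34 carriers tested, 2 higher and 1 lower, where 0.594% of all genes passed, 0.225% higher and 0.369% lower. Slc16a10 was at 206 and 272 CPM in the BPTES libraries and 88.6 and 109.5 CPM in the DMSO libraries, a log2 fold change of 1.27 (SE 0.16, adjusted p = 0.0343). Both treated libraries lay above both controls. Slc7a8 was at 277 and 341 CPM against 154 and 153 CPM, a log2 fold change of 1.01 (SE 0.12, adjusted p = 0.0252), again without overlap. Slc7a12 had few molecules, 112 and 104 UMIs against 290 and 326, or 0.893 and 1.11 against 2.42 and 3.10 CPM, and fell by 1.46 on the log2 scale (SE 0.21, adjusted p = 0.0371). The call of Slc16a10 was lost without the second BPTES library (log2 fold change 1.06), and that of Slc7a12 likewise (-1.62), while Slc7a8 passed without any 1 library. The number of carriers that passed was 9 and 1 without the first and second BPTES library, beside 9.83 and 0.0419% of all genes. It was 11 and 6 without the first and second DMSO library, beside 4.44 and 4.4%.

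The promoters of the 2 carriers that rose in the whole tubule are shown, beside that of Slc1a4, which fell in its early segments and was chosen after its window was seen to hold the letters searched for. Other carriers that passed are not shown. They are RefSeq sequences of GRCm38.p6, 5' to 3' on the gene's own strand, from 250 bases before the annotated start to 50 bases after it. All 3 genes are on the minus strand. Capitals mark a match to TGATGNAA, the core letters of the composite C/EBP-ATF response element of ATF4 targets, on either strand.
Slc16a10 (chr10:40142205-40142504): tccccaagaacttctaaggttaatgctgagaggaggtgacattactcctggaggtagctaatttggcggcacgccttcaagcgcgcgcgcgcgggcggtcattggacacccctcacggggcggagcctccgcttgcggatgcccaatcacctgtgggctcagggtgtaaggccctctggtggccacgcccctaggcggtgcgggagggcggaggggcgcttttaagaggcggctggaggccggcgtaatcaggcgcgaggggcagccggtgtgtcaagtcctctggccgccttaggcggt
Slc7a8 (chr14:54781837-54782136): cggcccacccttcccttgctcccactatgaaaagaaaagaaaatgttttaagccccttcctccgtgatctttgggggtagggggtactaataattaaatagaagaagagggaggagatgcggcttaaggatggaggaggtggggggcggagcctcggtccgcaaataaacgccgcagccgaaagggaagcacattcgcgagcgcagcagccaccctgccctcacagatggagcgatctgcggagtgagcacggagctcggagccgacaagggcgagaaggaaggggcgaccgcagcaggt
Slc1a4 (chr11:20332664-20332963): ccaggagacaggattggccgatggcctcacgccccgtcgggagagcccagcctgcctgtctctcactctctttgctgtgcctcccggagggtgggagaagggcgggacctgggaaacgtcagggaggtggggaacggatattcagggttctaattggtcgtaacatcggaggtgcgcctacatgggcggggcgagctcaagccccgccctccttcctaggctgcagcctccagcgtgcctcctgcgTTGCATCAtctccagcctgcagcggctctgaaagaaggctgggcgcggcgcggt
The Slc1a4 window held 1 match, on the opposite strand, which begins 4 bases before the annotated start and runs across it. The Slc16a10 and Slc7a8 windows held none. Promoters were matched by symbol for 28 of the 38 carriers, 46 windows in all. The letters occurred in 3 of the 46, belonging to Slc1a4 and Slc7a7, and in 3.97% of the 32851 promoters of that length. A match describes the letters and shows no binding.

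Other early tubule carriers were higher without passing. The heavy chain Slc3a2 was at 188 and 246 CPM against 130.2 and 153 CPM (log2 fold change 0.62, SE 0.15, edgeR adjusted p = 0.111), with no overlap. Slc43a2 was at 190.1 and 223 against 145 and 143 CPM (0.52, SE 0.10, adjusted p = 0.0854), Slc6a19 at 213 and 272 against 178 and 159.8 CPM (0.52, SE 0.13, adjusted p = 0.115), and Slc7a2 at 13.0 and 15.4 against 10.8 and 8.83 CPM (0.53, SE 0.13, adjusted p = 0.114). Over the 34 carriers tested, the median log2 fold change was 0.06, beside -0.00 over all genes. The treated and control libraries did not overlap for 24 of the 34, 13 higher and 11 lower, beside 57.3% of all genes. In these cells the 6 S1-S2 markers summed to 6126 and 6684 CPM under BPTES and 5799 and 5535 CPM under DMSO. Of the 6, 3 were higher and 1 lower in both treated libraries. The summed S3 markers overlapped. The 6 macrophage markers summed to 18.8 and 14.15 CPM against 28.9 and 32.9 CPM, all 6 lower in both. The nuclear RNA Malat1 was at 31148 and 32161 CPM against 26232.5 and 28444 CPM. The part of these in the results was not tested.

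**Figure D2:**
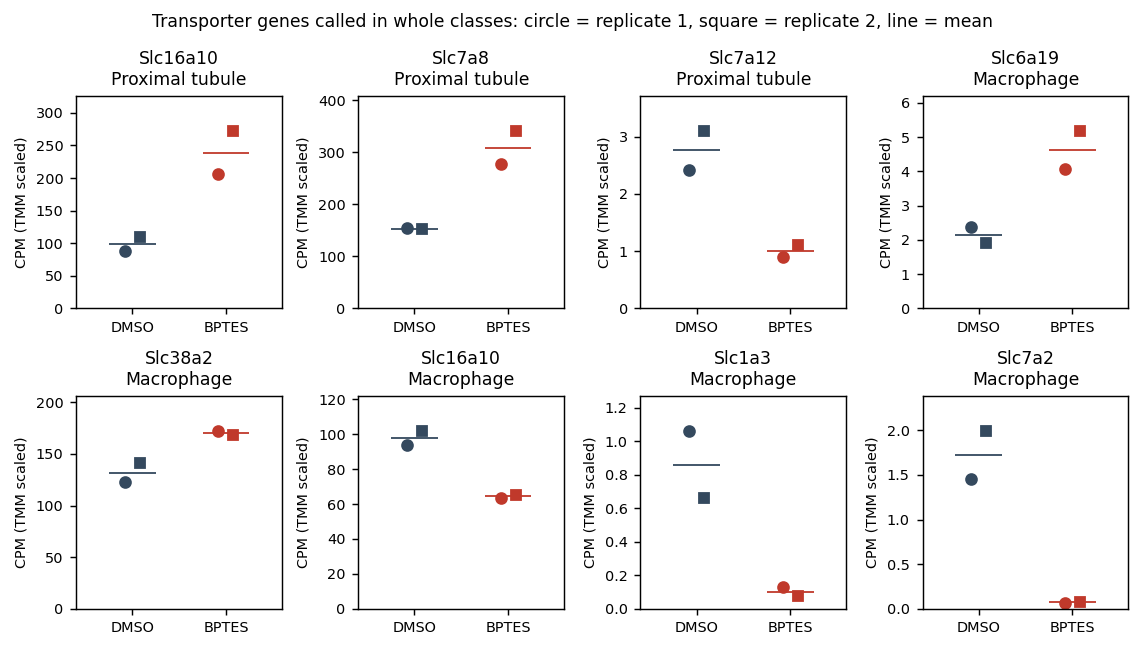
Level of each carrier in each library, in TMM-scaled CPM, for the 8 pairs of carrier and class that passed edgeR's test, 1 panel per pair with 2 BPTES and 2 DMSO points and the mean of each group. In every panel both BPTES points lie on 1 side of both DMSO points, and Slc7a2 and Slc1a3 in macrophages stand near 0 under BPTES.

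Fitted apart, the early and late segments held 18 passing pairs. In S1-S2 these were 10 of 34 carriers, 6 higher and 4 lower, where 12.1% of all genes passed, 7.1% higher and 4.99% lower. The 6 that rose were carriers of neutral, aromatic and cationic amino acids and their heavy chain. Slc16a10 was at 258 and 316 CPM against 103 and 135 CPM (log2 fold change 1.27, SE 0.16, adjusted p = 0.0187) and Slc7a8 at 348 and 396 against 182 and 195 CPM (0.98, SE 0.10, adjusted p = 0.00816). Slc3a2 was at 228 and 278 against 147 and 184 CPM (0.61, SE 0.14, adjusted p = 0.0395). The apical Slc6a19 was at 264 and 313 against 213 and 203 CPM (0.47, adjusted p = 0.0332), Slc43a2 at 234 and 255 against 171 and 175 CPM (0.50, adjusted p = 0.0251), and Slc7a2 at 16.6 and 18.1 against 13.5 and 11.8 CPM (0.45, adjusted p = 0.0354). No library of 1 group reached into the range of the other in these 6.

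The 4 that fell in S1-S2 were at low levels there. Slc6a18 was at 11.6 and 9.0 CPM against 17.7 and 19.2 CPM (log2 fold change -0.84, SE 0.13, adjusted p = 0.0212). The neutral exchanger Slc1a4 was at 1.27 and 1.29 against 2.59 and 3.13 CPM (-1.16, SE 0.18, adjusted p = 0.0212), Slc7a12 at 0.430 and 0.429 against 0.964 and 1.17 CPM (-1.31, adjusted p = 0.0292), and Slc6a9 at 2.34 and 2.40 against 3.45 and 3.79 CPM (-0.61, adjusted p = 0.0426). All 4 carriers were among those higher in S3. Of the 10 calls in S1-S2, Slc7a8 and Slc6a18 passed without any 1 library, and the other 8 were lost without the second BPTES library, at 1.12 for Slc16a10, 0.46 for Slc3a2, 0.35 for Slc6a19, 0.44 for Slc43a2, 0.39 for Slc7a2, -1.31 for Slc7a12, -1.17 for Slc1a4 and -0.62 for Slc6a9. The fit without the second BPTES library leaves 1 library in that group, and fewer of all genes in S1-S2 passed in it than with all 4. Fewer also passed without the first DMSO library. More passed without the first BPTES or the second DMSO library, which leave 1 library in a group as well. The reason for this was not tested. Slc3a2 was also lost without the first DMSO library (0.46), Slc6a9 without the first BPTES library (-0.59), and Slc6a19 (0.44), Slc7a2 (0.36) and Slc6a9 (-0.54) without the second DMSO library. With predicted doublets kept, 2 of the 10 passed, Slc16a10 (1.14) and Slc7a8 (0.89), and 2 pairs in both segments did, beside 0.171% of all genes. The log2 fold changes of the 8 others were then 0.54 for Slc3a2, 0.42 for Slc6a19, 0.42 for Slc43a2, 0.45 for Slc7a2, -1.004 for Slc6a18, -1.06 for Slc1a4, -0.81 for Slc7a12 and -0.79 for Slc6a9. At the 25% mitochondrial limit 7 pairs of the segments passed and at clustering resolution 2 there were 8, beside 2.45 and 3.79%. In the same S1-S2 cells the summed level of 7 S3 markers was 156 and 112 CPM under BPTES and 188 and 200 CPM under DMSO, and 5 of the 7 were lower in both treated libraries, with none at 0. The 6 S1-S2 markers summed to 7230 and 7382 CPM against 6526 and 6420 CPM, 4 of the 6 higher and 1 lower in both. The 6 macrophage markers summed to 17.2 and 13.1 CPM against 28.6 and 32.6 CPM, all 6 lower in both treated libraries. Mitochondrial genes took 15.9 and 18.1% of UMIs there against 12.9 and 14.9%. The nuclear RNA Malat1 was at 35247 and 35427 CPM against 27355 and 30235 CPM. The part of these in the results was not tested. Over the 34 carriers the median log2 fold change was 0.16, beside -0.00 over all genes, and 27 did not overlap, 16 higher and 11 lower, beside 66% of all genes.

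In S3, 8 of 29 carriers passed, 1 higher and 7 lower, where 10.9% of all genes passed, 5.22% higher and 5.72% lower. The carrier that rose was Slc7a13, the light chain typical of S3, at 1055 and 1075 CPM against 829.8 and 842 CPM (log2 fold change 0.35, SE 0.10, adjusted p = 0.0467). Slc16a10 fell, at 23.2 and 23.9 against 32.6 and 36.4 CPM (-0.55, SE 0.10, adjusted p = 0.0164), and so did Slc7a8, at 25.2 and 26.8 against 41.9 and 31.7 CPM (-0.50, SE 0.13, adjusted p = 0.0428). Both had risen in S1-S2. Slc7a7 was at 71.8 and 82.8 against 95.9 and 110.4 CPM (-0.42, adjusted p = 0.0371), Slc6a20a at 12.9 and 12.9 against 19.3 and 18.3 CPM (-0.54, adjusted p = 0.0216), and Slc7a12 at 2.58 and 5.02 against 8.12 and 8.25 CPM (-1.19, adjusted p = 0.0313). The lysosomal Slc38a9 (-0.49, adjusted p = 0.0339) and Slc38a6 (-0.61, adjusted p = 0.0151) fell too, from 25.6 and 22.5 to 18.6 and 15.3 CPM and from 27.5 and 23.9 to 17.2 and 16.4 CPM. The 6 S1-S2 markers summed to 2194 and 2772 CPM in the treated S3 cells and 2975 and 3044 CPM in the controls, 2 of the 6 lower in both treated libraries, and the 6 macrophage markers to 24.7 and 19.9 against 29.8 and 33.6 CPM, 5 of the 6 lower in both. The part of these in the falls was not tested. Malat1 was at 16552 and 13852 CPM against 21876 and 23406 CPM. The S3 cells came from 3 clusters in unequal shares. Cluster 26 gave 27.5 and 24.0% of S3 UMIs under BPTES and 36.1 and 42.0% under DMSO, and it held the highest Slc16a10 and Slc7a8 of the 3. Fitted by cluster, the log2 fold changes in clusters 6, 26 and 32 were -0.31, -0.37 and -0.18 for Slc16a10 and -0.03, -0.57 and 0.04 for Slc7a8, and neither passed in any of them. Of the 8 S3 calls that of Slc7a12 passed in 1 of these clusters. The part of the cluster shares in the S3 values was not tested. With predicted doublets kept, the fold changes of Slc16a10 (0.016), Slc7a8 (0.28), Slc7a7 (0.18), Slc6a20a (0.083) and Slc38a9 (0.23) in S3 turned positive and none of these passed. All 8 calls in S3 were lost without the second DMSO library and all but that of Slc16a10 without the first. Each of these fits leaves 1 DMSO library, and fewer of all genes in S3 passed in them than with all 4 libraries. More of all genes passed in the fits that leave 1 BPTES library. The reason for this was not tested. The fold changes without the first and second DMSO library were 0.34 and 0.36 for Slc7a13, -0.28 and -0.69 for Slc7a8, -0.51 and -0.31 for Slc7a7, -0.50 and -0.58 for Slc6a20a, -1.18 and -1.16 for Slc7a12, -0.40 and -0.59 for Slc38a9 and -0.50 and -0.71 for Slc38a6. Without the second it was -0.47 for Slc16a10. Over the 29 carriers the median log2 fold change was -0.24, beside 0.02 over all genes, and 19 did not overlap, 1 higher and 18 lower, beside 61% of all genes.

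The treatment effect differed between the segments for 18 of 32 carriers tested together, by an edgeR interaction test added after seeing the data, and it was lower in S3 for 16 of these. This stood beside 38.9% of all genes. The difference was -1.80 for Slc16a10 and -1.46 for Slc7a8 on the log2 scale. It was 0.92 for Slc1a4 and 0.59 for Slc6a18, the 2 carriers whose effect was higher in S3. When each library was left out in turn, which leaves 1 library in a group, the difference was -1.97 to -1.71 for Slc16a10. For Slc7a8 it was -1.70 to -1.23. Of the 18, Slc7a9 (-0.20) did not pass without the first BPTES library, and Slc7a9 (-0.27), Slc38a7 (-0.42), Slc3a1 (-0.17) and Slc6a18 (0.60) did not without the first DMSO library. Slc6a20b (-0.17) and Slc6a18 (0.60) did not without the second DMSO library. The difference of Slc6a18 was 0.35 without the second BPTES library and 0.37 without cluster 1, and passed in both. Without cluster 1, Slc3a1 (-0.36), Slc7a9 (-0.48) and Slc6a20b (-0.37) differed more between the segments, by over 1.5 times, and passed as well. Without cluster 1, described next, 21 of 31 carriers differed, 19 of them lower in S3, beside 34.6% of all genes, and the values for Slc16a10 and Slc7a8 were -1.21 and -1.27.

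**Figure D3:**
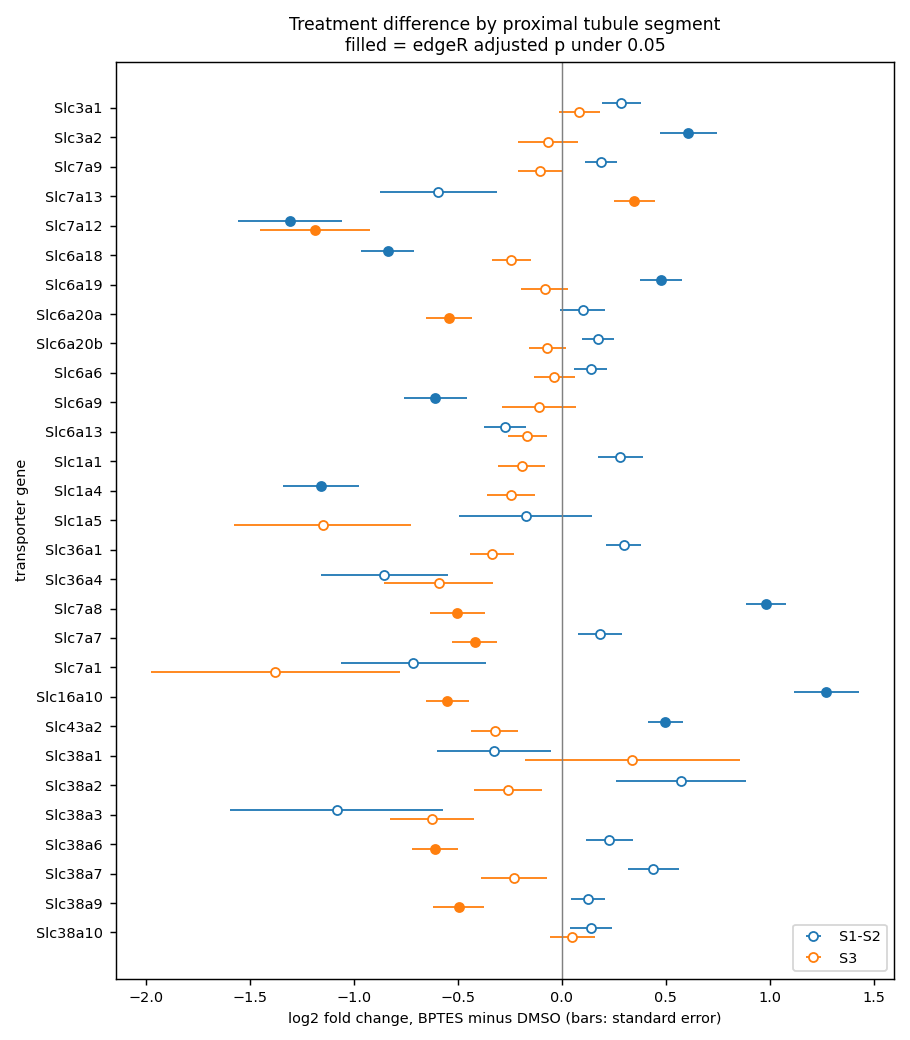
Log2 fold change of BPTES over DMSO with its standard error for each carrier tested in the early (S1-S2) and late (S3) proximal tubule clusters, filled where the edgeR adjusted p was under 0.05. Slc16a10 and Slc7a8 lie to the right of 0 in S1-S2 (1.27 and 0.98) and to the left in S3 (-0.55 and -0.50).

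The proximal tubule was made of clusters that differed in these carriers. Cluster 1, with 2863 cells of the early type and a median depth 2.25 times that of its libraries, held most transcripts of Slc16a10. Its leading genes were Snhg11, Slc5a12, Magi2, Nhs and Esrrg. It counted 918 and 809 cells under BPTES and 623 and 513 under DMSO, and 23.6 and 26.4% of proximal tubule UMIs against 16.5 and 15.9%. In plain CPM, Slc16a10 was at 678 and 745 CPM in this cluster under BPTES and at 303 and 398 CPM under DMSO. The cluster supplied 76.8 and 77.4% of the proximal tubule's Slc16a10 UMIs under BPTES, against 53.6 and 57.4%. Slc7a8 was at 777 and 795 CPM against 497 and 489.6 CPM there, 65.6 and 66.0% of its UMIs against 50.7 and 50.8%. Slc43a2 and Slc6a19 overlapped between the groups in cluster 1, at 467 and 447 against 467 and 427 CPM and at 449.9 and 423 against 496 and 416 CPM. After TMM scaling Slc3a2 was at 294 and 281.3 against 240.01 and 280.8 CPM there, with no overlap, and did not pass (log2 fold change 0.14, edgeR adjusted p = 0.460).

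Within cluster 1 fitted alone, Slc7a8 was the only carrier that passed (log2 fold change 0.70, SE 0.08, adjusted p = 0.0331), beside 0.212% of all genes. Without cluster 1, none of the 3 proximal tubule calls remained and only 0.0261% of all genes passed. The fold changes were then 0.55 for Slc16a10, 0.71 for Slc7a8 and -1.28 for Slc7a12. None of the 10 S1-S2 calls remained either, where 0.0137% of all genes passed, at adjusted p-values of 0.0636 to 0.261 for the 10. Their log2 fold changes were then 0.67 for Slc16a10, 0.77 for Slc7a8, 0.81 for Slc3a2, 0.67 for Slc6a19, 0.57 for Slc43a2, 0.72 for Slc7a2, -0.64 for Slc6a18, -1.11 for Slc1a4, -1.16 for Slc7a12 and -0.36 for Slc6a9. Those of Slc16a10 and Slc6a9 were smaller by more than 1.5 times, and that of Slc7a2 was larger by as much. The cell numbers of other tubule clusters also differed between libraries. Cluster 0 counted 1150 and 1399 cells under BPTES and 803 and 810 under DMSO, while cluster 7 counted 352 and 156 against 647 and 502.

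Of 13 tubule clusters fitted by number 8 held no carrier that passed edgeR's test. In these 8, 0.0362 to 0.703% of all genes passed, and 37 of 184 pairs of carrier and cluster had an unadjusted p under 0.05. How many of all genes reached that unadjusted threshold was not counted by cluster. The other 5 were cluster 1 and these. In cluster 0, of the early type, Slc6a19 (log2 fold change 0.34, adjusted p = 0.00384) and Slc3a2 (0.26, adjusted p = 0.0305) rose, beside 2.01% of all genes. In cluster 13 Slc6a19 rose (0.54, adjusted p = 0.000207) and Slc6a18 fell (-0.64, adjusted p = 0.0358), beside 1.31%, and in cluster 14 Slc6a18 fell (-0.83, adjusted p = 0.0226), beside 1.07%. In cluster 6, the largest of S3, Slc7a12 was at 2.25 and 3.51 CPM against 12.5 and 9.01 CPM (-1.91, SE 0.24, adjusted p = 0.000129). The GABA and taurine carrier Slc6a13 fell there too (-0.36, adjusted p = 0.0285), beside 2.22% of all genes. Clusters were fitted by number after seeing the data.

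**Figure D4:**
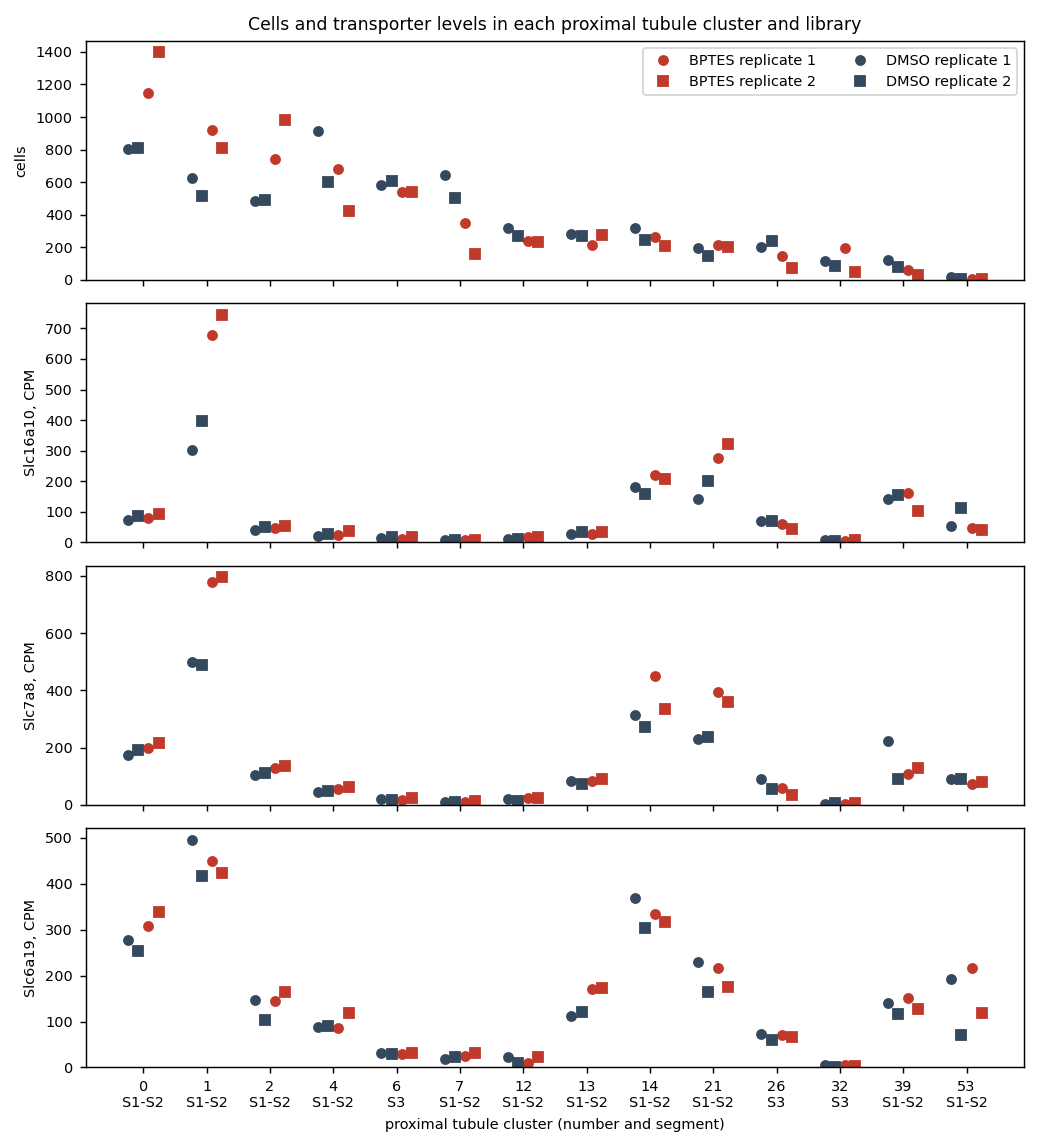
Number of cells and level of Slc16a10, Slc7a8 and Slc6a19, in plain CPM, in each proximal tubule cluster and library. Cluster 1 has the highest levels of Slc16a10 (678 and 745 CPM under BPTES, 303 and 398 under DMSO) and more cells in both BPTES libraries.

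Macrophages went the other way for Slc16a10. Of 30 carriers tested 5 passed, 2 higher and 3 lower, where 6.78% of all genes passed, 2.43% higher and 4.36% lower. Slc16a10 was at 63.7 and 65.1 CPM under BPTES and 94.1 and 102 CPM under DMSO, a log2 fold change of -0.60 (SE 0.08, adjusted p = 0.0128), from 843 to 2454 UMIs per library. The groups did not overlap. Slc7a2, which brings in arginine for nitric oxide synthase and arginase, was counted at 1 UMI in each BPTES library and at 33 and 48 UMIs in the controls. The summed level was 24.8 times higher under DMSO, with an exact 95% interval for counting error of 6.63 to 207.9, and passed the test (adjusted p = 0.0140). Slc1a3, a glutamate carrier, had 2 and 1 UMIs against 24 and 16, 8.15 times higher under DMSO (2.60 to 41.2, adjusted p = 0.0440). The glutamine carrier Slc38a2 was at 172 and 169 CPM against 123 and 141 CPM (0.37, SE 0.09, adjusted p = 0.0483). The tubule carrier Slc6a19 was at 4.08 and 5.17 CPM against 2.38 and 1.91 CPM (1.10, SE 0.26, adjusted p = 0.0476).

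Marker transcripts moved with some of these. The 6 macrophage markers themselves summed to 10540 and 10480 CPM under BPTES and 12280 and 14350 CPM under DMSO, 4 of the 6 lower in both treated libraries, and the 7 plasma cell markers to 169 and 183 against 134 and 129.5 CPM, 4 of the 7 higher in both. Their part in the results was not tested. The 8 proximal tubule markers summed to 594 and 434 CPM in macrophages under BPTES and 344 and 266 CPM under DMSO, 7 of the 8 higher in both treated libraries and none at 0. The 6 S1-S2 markers overlapped, at 282 and 275.5 CPM against 312.4 and 270.5 CPM in sum, 4 of the 6 higher and 1 lower in both treated libraries. The 7 S3 markers summed to 105.7 and 84.29 CPM against 95.81 and 62.01 CPM, none higher and 2 lower in both. Slc6a19 was at 1.97% of its proximal tubule level in treated and 1.23% in control macrophages. The median over the proximal tubule and segment markers was 1.95 and 1.15%. The carriers Slc3a1 (log2 fold change 0.89), Slc7a9 (0.94), Slc1a1 (1.11) and Slc6a20b (0.98), all highest in the proximal tubule, had higher values in treated macrophages without passing. The part of tubule RNA in these values was not tested. The 6 fibroblast markers, from the class with the highest Slc7a2 and Slc1a3, summed to 2.99 and 2.34 CPM against 4.23 and 8.89 CPM, 3 of the 6 lower in both treated libraries. The 7 B cell markers summed to 55.2 and 61.3 CPM against 110 and 173 CPM, all 7 lower in both. The part of fibroblast and B cell RNA in the falls of Slc7a2 and Slc1a3 was not tested. Cluster 50, which was named from macrophage markers, had the B cell genes Bank1 and Cd79a among its 10 leading genes and 2.4 times the median depth of its libraries. It counted 1 and 5 cells under BPTES and 18 and 44 under DMSO. At clustering resolution 2 the same cells formed a cluster that kept no name, with B cell as its best list. Without it 4 carriers passed in the class, beside 7.35% of all genes, and Slc1a3 did not pass the filter on low counts and was not tested. In cluster 5, the largest of the class, Slc16a10 (-0.63, adjusted p = 0.0256), Slc7a2 (-4.02, adjusted p = 0.0351) and Slc38a2 (0.41, adjusted p = 0.0336) passed, beside 6.37% of all genes. In clusters 17 and 43, where 26 and 1 carriers were tested, none passed edgeR's test, beside 1.02 and 0% of all genes. There 7 and 0 carriers had an unadjusted p under 0.05.

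Depth and RNA quality also moved with treatment in macrophages. Their median depth was 14676 and 14383 UMIs under BPTES and 17504 and 20522 UMIs under DMSO. Malat1 was at 17824 and 17893 CPM against 15794 and 15982 CPM, and mitochondrial genes took 3.13 and 3.04% of UMIs against 2.79 and 2.77%. Neither group's values overlapped with the other's in these 3 measures, and their part in the results was not tested. All 5 macrophage calls were lost without either BPTES library. Each of these fits leaves 1 BPTES library, and fewer of all genes in macrophages passed in them than with all 4 libraries. More of all genes passed in the fits that leave 1 DMSO library. The reason for this was not tested. Without the first and the second BPTES library, the log2 fold changes were -0.60 and -0.62 for Slc16a10, -4.38 and -4.63 for Slc7a2, -3.38 and -2.70 for Slc1a3, 0.34 and 0.38 for Slc38a2 and 1.26 and 0.93 for Slc6a19. Without the first DMSO library those of Slc1a3 (-2.60) and Slc38a2 (0.26) were lost as well, and without the second that of Slc6a19 (0.95). With predicted doublets kept, Slc16a10 passed (-0.51), beside 3.63% of all genes, and Slc7a2 (-1.77), Slc1a3 (-1.77), Slc38a2 (0.30) and Slc6a19 (0.42) did not. With DESeq2, Slc16a10 and Slc38a2 passed, Slc6a19 did not (adjusted p = 0.0715), and Slc7a2 and Slc1a3 were given no adjusted p. With the replicate number as a block, Slc16a10 and Slc7a2 passed, and Slc1a3 (-2.99), Slc38a2 (0.37) and Slc6a19 (1.10) did not. Slc6a19 (1.19) was also lost at the 25% mitochondrial limit, and Slc1a3 (-2.20) and Slc38a2 (0.37) at clustering resolution 2. Without cluster 5, Slc38a2 (0.31) and Slc6a19 (0.87) did not pass, and Slc7a2 and Slc1a3 have no value from that fit. Over the 30 carriers the median log2 fold change was -0.08, and 23 did not overlap, 9 higher and 14 lower, beside 58.7% of all genes.

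In the 15 other classes no carrier passed edgeR's test. Of 335 pairs there, 60 had an unadjusted p under 0.05, and DESeq2 called 1, Slc3a2 in monocytes (adjusted p = 0.00921). The 60 held 12 of 29 carriers in dendritic cells, beside 3110 of 13271 genes. Monocytes had 7 of 29 beside 2367 of 12036, and T cells 9 of 27 beside 2277 of 13071. Endothelium had 4 of 28 beside 1565 of 13828, and fibroblasts 2 of 22 beside 1176 of 10552. NK cells had 2 of 16 beside 913 of 9164, and innate lymphoid cells 4 of 19 beside 902 of 8758. B cells had 4 of 22 beside 1080 of 10112, and plasma cells 3 of 26 beside 647 of 11464. The share of all genes that passed was 3.9% in dendritic cells, 0.976% in fibroblasts, 0.839% in monocytes, 0.622% in NK cells, 0.564% in endothelium, 0.411% in innate lymphoid cells, 0.352% in T cells and 0.303% in the connecting tubule. It was 0.127% in the distal convoluted tubule, 0.0984% in intercalated cells, 0.0846% in the thick ascending limb, 0.0349% in plasma cells, 0.0266% in principal cells, 0.0198% in B cells and 0% in neutrophils. At an unadjusted p under 0.05, neutrophils had 1 of 25 carriers, beside 1009 of 9534 genes. The thick ascending limb had 4 of 23 beside 689 of 10634, and the distal convoluted tubule 2 of 17 beside 699 of 9460. The connecting tubule had 3 of 10 beside 541 of 6924. Principal cells had 2 of 23 beside 1393 of 11292, and intercalated cells 1 of 19 beside 995 of 10167.

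Among pairs outside the proximal tubule and macrophages with an unadjusted p under 0.05, no overlap and a mean log2 CPM of at least 3, these 8 had the lowest unadjusted p. In monocytes Slc3a2 was at 91.5 and 99.1 CPM under BPTES and 162 and 139 CPM under DMSO (log2 fold change -0.66, SE 0.12, adjusted p = 0.0590). The levels did not overlap. In dendritic cells Slc38a1 was at 148 and 126 against 173 and 169 CPM (-0.32, SE 0.08, adjusted p = 0.0743). In T cells Slc7a1 was at 59.1 and 57.4 against 78.3 and 71.5 CPM (-0.36, SE 0.08, adjusted p = 0.108) and Slc7a5 at 25.1 and 20.3 against 30.9 and 32.1 CPM (-0.48, SE 0.12, adjusted p = 0.137). Slc16a10 had higher values under BPTES in innate lymphoid cells, at 72.4 and 78.0 against 41.0 and 43.4 CPM (0.83, SE 0.20, adjusted p = 0.118). So it did in neutrophils, at 61.9 and 63.9 against 38.4 and 36.8 CPM (0.74, SE 0.18, adjusted p = 0.355). In the collecting system Slc3a2 was at 143 and 199 against 116 and 95.1 CPM in principal cells (0.70, SE 0.18, adjusted p = 0.210). Slc6a6 was at 13.7 and 9.27 against 30.1 and 26.8 CPM in the connecting tubule, from 8 to 22 UMIs per library (-1.26, SE 0.40, adjusted p = 0.278). None of these 8 passed edgeR's test.

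Whether a carrier's treatment effect in another class differed from that in the proximal tubule was tested with an edgeR interaction that kept the library as a block, in 11 classes. The difference passed for 11 pairs of carrier and class. In macrophages 5 of 36 carriers differed, beside 2.03% of all genes. These were Slc16a10 (-1.91, adjusted p = 0.000391), Slc7a8 (-1.21, adjusted p = 0.00178), Slc3a2 (-0.92, adjusted p = 0.00947), Slc43a2 (-0.65, adjusted p = 0.0346) and Slc7a2 (-5.14, adjusted p = 0.00229), all lower in macrophages. In monocytes 3 of 35 differed, beside 0.798%, namely Slc16a10 (-1.31, adjusted p = 0.0112), Slc7a8 (-1.73, adjusted p = 0.0214) and Slc3a2 (-1.28, adjusted p = 0.0116). In dendritic cells Slc16a10 (-1.60, adjusted p = 0.00147) and Slc7a8 (-1.22, adjusted p = 0.00814) differed, 2 of 34 beside 1.14%, and in principal cells Slc16a10 (-1.07, adjusted p = 0.00102), beside 1.6%. No carrier differed in the thick ascending limb, connecting tubule, endothelium, neutrophils, T cells, innate lymphoid cells or B cells, where 0.28, 0.111, 0.257, 0.587, 0.093, 0.844 and 0.583% of all genes did. Of the 243 pairs in those 7 classes 46 had an unadjusted p under 0.05. The thick ascending limb had 10 of 35, beside 1298 of 16444 genes, and the connecting tubule 1 of 34 beside 794 of 15333. Endothelium had 9 of 34 beside 1975 of 17522, and neutrophils 4 of 34 beside 1361 of 16517. T cells had 12 of 36 beside 1922 of 17202. Innate lymphoid cells had 5 of 34 beside 1126 of 15759, and B cells 5 of 36 beside 1208 of 16479. All of these comparisons share the proximal tubule values. The number of differences that passed changed with the library left out, and each such fit leaves 1 library in a group. With cluster 1 left out of the proximal tubule, 5 of the 11 differences passed: Slc16a10 in macrophages (-1.18) and dendritic cells (-0.88), Slc7a8 (-0.92) and Slc7a2 (-5.33) in macrophages, and Slc3a2 in monocytes (-1.42). Of the 6 that did not, 4 differed from the value with cluster 1 by less than 1.5 times: Slc3a2 (-1.06, adjusted p = 0.0551) and Slc43a2 (-0.64, adjusted p = 0.0911) in macrophages, and Slc7a8 in monocytes (-1.44, adjusted p = 0.152) and dendritic cells (-0.93, adjusted p = 0.0522). Slc16a10 was nearer to 0 in monocytes (-0.59, adjusted p = 0.341) and in principal cells (-0.36, adjusted p = 0.670).

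**Figure D5:**
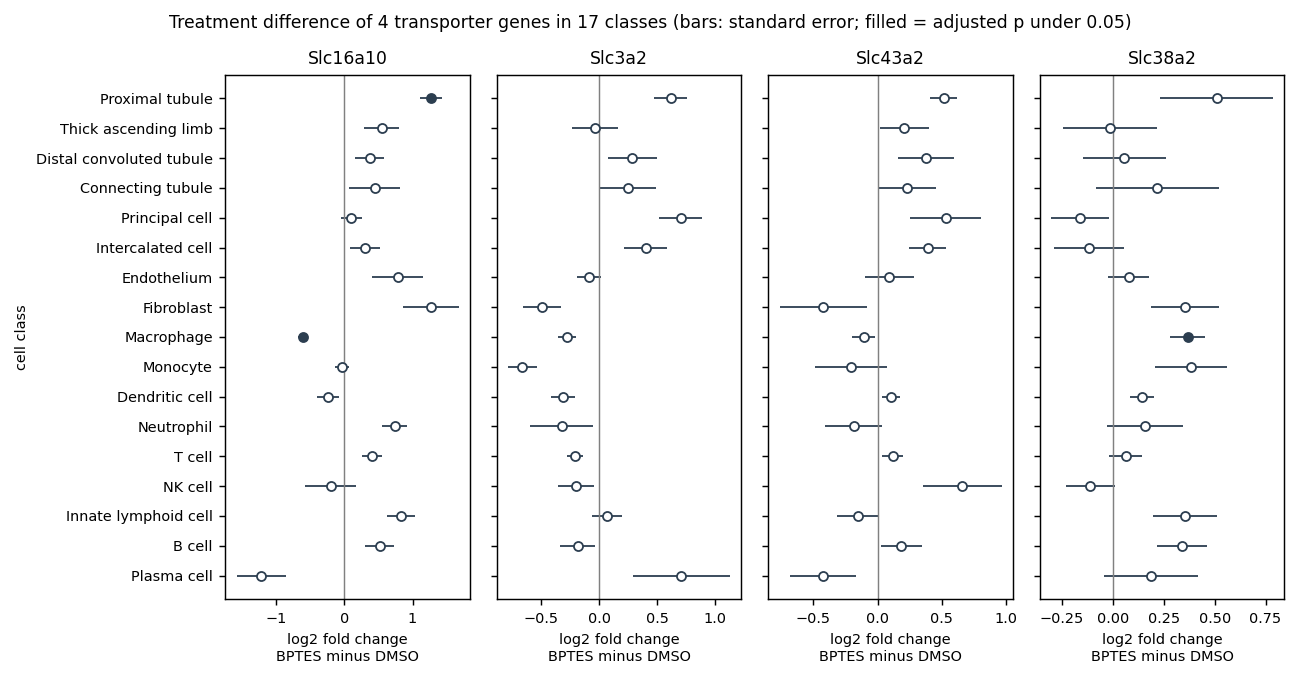
Log2 fold change of BPTES over DMSO with its standard error for Slc16a10, Slc3a2, Slc43a2 and Slc38a2 in each of the 17 classes where it was tested, filled where the edgeR adjusted p was under 0.05. Slc16a10 lies at 1.27 in the proximal tubule and -0.60 in macrophages, the classes in which it passed.

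The rest of the amino acid pathway was read from 5 lists, counted over pairs of a gene and 1 of the 17 classes, of which 1.08% passed over all genes. The share over all genes was 6.78% in macrophages and 3.9% in dendritic cells, which held 7 and 4 of the 18 pairs that passed. Among other plasma membrane carriers and their partners 2 of 73 pairs were higher and 2 lower. The cystine and glutamate exchanger Slc7a11, an ATF4 and NRF2 target, fell in macrophages, at 3.69 and 3.71 against 10.4 and 19.6 CPM (log2 fold change -2.02, edgeR adjusted p = 0.0488), and in monocytes, at 59.4 and 59.5 against 135 and 109 CPM (-1.04, adjusted p = 0.0316). In fibroblasts Slc38a11 was at 32.6 and 44.8 against 2.90 and 1.12 CPM (4.62, adjusted p = 0.0153). Slc6a17, a vesicular neutral amino acid carrier, was counted at 25 and 13 UMIs in the treated fibroblasts and at 0 in the controls, 47.5-fold higher against a floor of 3 UMIs over the control group and at least 36.8-fold by the exact 95% interval for counting error (adjusted p = 0.0393). Fibroblasts counted 68 and 47 cells under BPTES and 64 and 286 under DMSO. At clustering resolution 2 they fell into 2 clusters. Cluster 54 of that resolution, which kept no name and had pericytes or smooth muscle as its best list, held 73.5 and 66.0% of treated and 53.1 and 36.0% of control fibroblasts. All UMIs of both genes were in it. There Slc38a11 was at 54.3 and 79.8 CPM under BPTES and 8.34 and 8.5 CPM under DMSO, from 40 and 45 UMIs against 4 and 8. For Slc6a17 the ratio within this cluster was 13.8-fold against the same floor and at least 10.7-fold by the interval. The part of this split in the class values was not tested.

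Of the lysosomal and mitochondrial carriers 1 of 142 pairs was higher and 2 lower. The lysosomal peptide and histidine carrier Slc15a3 fell in macrophages (-0.44, adjusted p = 0.0339) and dendritic cells (-0.67, adjusted p = 0.0185), and its relative Slc15a4 rose in dendritic cells (0.58, adjusted p = 0.0246). Of the glutamine and glutamate enzymes none of 237 pairs passed edgeR's test, and 30 had an unadjusted p under 0.05. The share over all genes at that unadjusted threshold was not taken over the 17 classes together. Of the ATF4 stress genes none of 231 pairs was higher and 5 were lower: Atf3, an early stress factor, in the thick ascending limb (-2.24), the distal convoluted tubule (-2.58) and endothelium (-0.92), Nupr1 in macrophages (-1.27) and Sesn2 in dendritic cells (-0.65). Mitochondrial genes took 21.3 and 21.3% of UMIs under BPTES and 18.2 and 14.2% under DMSO in the thick ascending limb. They took 21.4 and 19.1% against 16.9 and 15.8% in the distal convoluted tubule. In endothelium they were lower under BPTES, at 3.25 and 3.16% against 3.52 and 3.46%. The part of these in the Atf3 values was not tested. Of the mTORC1 sensing genes 2 of 359 were higher and 5 lower. The lysosomal scaffold genes Lamtor1 (-0.62), Lamtor2 (-0.31) and Lamtor4 (-0.59) fell in macrophages, and Lamtor1 in dendritic cells (-0.41). The fifth pair was Sesn2, a leucine sensor that both lists hold. The sestrin genes Sesn3 in macrophages (0.49) and Sesn1 in T cells (0.58) rose.

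Most of these list calls did not pass when a BPTES library was left out, which leaves 1 library in that group. Of the 18 pairs, with Sesn2 in dendritic cells counted once, 5 passed without the first and 1 without the second BPTES library, and 17 and 15 without the first and second DMSO library. None of the 7 in macrophages passed without either BPTES library. Without the first and second, the log2 fold changes there were -2.03 and -2.03 for Slc7a11, -0.44 and -0.44 for Slc15a3, -1.42 and -1.15 for Nupr1, -0.74 and -0.53 for Lamtor1, -0.34 and -0.29 for Lamtor2, -0.67 and -0.52 for Lamtor4 and 0.51 and 0.46 for Sesn3. The same held for Slc7a11 in monocytes (-1.03 and -1.04), Slc38a11 in fibroblasts (4.80 and 4.31) and Atf3 in the thick ascending limb (-1.99 and -2.45) and endothelium (-0.89 and -0.95). Slc6a17 did not pass without the second BPTES or the second DMSO library and was not tested without the first BPTES library. In dendritic cells Slc15a3 (-0.57), Slc15a4 (0.50), Lamtor1 (-0.37) and Sesn2 (-0.49) did not pass without the second BPTES library. Sesn2 did not pass without the first (-0.67) or second (-0.62) DMSO library either. Atf3 in the distal convoluted tubule did not pass without the first BPTES library (-2.37), and Sesn1 in T cells did not without the second BPTES (0.60) or second DMSO library (0.54).

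Several carriers are neighbours on a chromosome. Beside Slc6a18 and Slc6a19, these are Slc6a20b and Slc6a20a 4.4 kb apart on chromosome 9, Slc6a13 and Slc6a12 4.9 kb apart on chromosome 6, and Slc36a2 and Slc36a1 19.2 kb apart on chromosome 11. Slc6a13 and Slc6a12 were both highest in innate lymphoid cells. In the Slc36 and Slc6a20 pairs the highest class differed: Slc36a1 was highest in the proximal tubule and Slc36a2 in fibroblasts, and Slc6a20b in the proximal tubule and Slc6a20a in innate lymphoid cells with wide spread. Slc16a10 spans bases 40033532 to 40142270 of chromosome 10, and Slc7a8 bases 54722215 to 54781886 of chromosome 14.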

How the data were processed

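The 4 deposited tables hold raw UMI counts per gene and barcode, made by the authors with Cell Ranger 8.0.1 on mm10, per the submitters' processing notes. No other step is given in the sources used here, and no sample column was left unused. The marker gene tdTomato of the reference was left out.

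Barcodes with at least 500 UMIs, 300 genes and at most 50% mitochondrial UMIs were kept. Predicted doublets were removed with Scrublet scores at 0.4% per 1000 barcodes, since its own threshold marked only 673 barcodes. Cells were clustered with scanpy 1.11.5 and leidenalg 0.10.2 under Python 3.11.15 (3000 variable genes without the carriers, 40 components, 15 neighbours, resolution 1) and named from 26 marker lists. Counts were summed per library and class. Classes with at least 20 cells and 100000 UMIs in every library were tested with edgeR 4.0.16 (R 4.3.3, TMM scaling, filterByExpr, robust quasi-likelihood test). Interactions needed 50 cells. The scripts were tested on simulated data.

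Values by library are given for every pair of carrier and class that passed, then, by p, for pairs with an unadjusted p under 0.05, no overlap and a mean log2 CPM of at least 3, up to 20 pairs, and for each carrier its highest class by mean CPM. Called genes of the other lists are named, at most 5 per class by size of change. Slc15a3 and Lamtor2 in macrophages and the segment genes of the closing section were named outside this rule, after their values were seen. The carriers and all lists were chosen with earlier results of these data known. Alternatives were DESeq2 1.42.0, RLE scaling, no filter, a replicate block, each library left out, a 25% mitochondrial limit, doublets kept, resolution 2, and the carriers kept in clustering. Fits without a cluster, fits by cluster and the test between segments were added after seeing the data. RNA captured from other cells, the depth of each class and the names given to clusters can all move the values. Coordinates are from RefSeq on GRCm38, and the shared windows are from GENCODE transcripts. Some genes of the pathway lists are not reported here by name.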

Additional observations from a re-analysis of the deposited data

Results flagged for a closer look

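In 29 cases a carrier's treatment effect differed between cell types, by an edgeR interaction test at an adjusted p of 0.05. Values are differences of log2 fold changes.

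Against the proximal tubule, 11 effects were lower in the other class. In macrophages the difference was -1.91 for Slc16a10, -1.21 for Slc7a8, -0.92 for Slc3a2, -0.65 for Slc43a2 and -5.14 for Slc7a2. In monocytes it was -1.31 for Slc16a10, -1.73 for Slc7a8 and -1.28 for Slc3a2. In dendritic cells it was -1.60 for Slc16a10 and -1.22 for Slc7a8, and in principal cells -1.07 for Slc16a10. Without cluster 1 in the proximal tubule, the 4 differences of Slc16a10 were more than 1.5 times smaller, at -1.18 in macrophages, -0.59 in monocytes, -0.88 in dendritic cells and -0.36 in principal cells, and those in monocytes and principal cells did not pass.

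Between the tubule segments 18 effects differed, given as S3 minus S1-S2. Among basolateral carriers and their heavy chain the values were -1.80 for Slc16a10, -1.46 for Slc7a8, -0.82 for Slc43a2, -0.60 for Slc7a7 and -0.69 for Slc3a2. Among carriers of the brush border they were -0.20 for Slc3a1, -0.30 for Slc7a9, -0.55 for Slc6a19, -0.24 for Slc6a20b, -0.64 for Slc6a20a, -0.48 for Slc1a1 and 0.59 for Slc6a18. The proton-coupled Slc36a1 was at -0.62 and the exchanger Slc1a4 at 0.92. Of the Slc38 family, Slc38a2 was at -0.80, Slc38a6 at -0.85, Slc38a7 at -0.65 and Slc38a9 at -0.62.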

How the results depend on the processing

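The number of passing pairs of carrier and class, 8, was 14 with DESeq2, 41 with no low-count filter, 17 with the replicate block and 5 with predicted doublets kept, and 1 to 26 when each library was left out. The share over all genes, 1.08%, became 2.02, 3.47, 2.89 and 1.1% with DESeq2, no filter, the replicate block and doublets kept in turn. In the proximal tubule, 3 passing carriers became 11, 15, 13 and 1 under the same settings in that order, and 0 without cluster 1. The share over all genes there, 0.594%, became 5.43, 8.29, 16.4 and 0.151%, and 0.0261% without cluster 1. In macrophages the share over all genes, 6.78%, became 6.7, 8.7, 4.5 and 3.63% under these settings, and 1.9% without cluster 5. The passing carriers moved as follows. In macrophages, 5 became 2, 9, 2 and 1, then 1 without cluster 5, and 0 to 6. In the segments, 18 became 31 with no filter, 34 with the replicate block, 7 at the 25% mitochondrial limit, 2 with doublets kept, 8 at resolution 2, 8 without cluster 1, and 10 to 23. The share of all genes passing there, 11.6%, became 15.2, 29, 2.45, 0.171 and 3.79% under these settings in turn. Cluster 1 holds no S3 cells, so leaving it out could change only S1-S2, where every call was lost. The 8 calls of S3 were not refitted. The 11 differences from the proximal tubule became 40 with no filter, 5 with doublets kept, 5 without cluster 1, and 4 to 31. The cause of these shifts was not tested. Whether the labels' replicate numbers pair the libraries is not known. Same-numbered libraries correlated over genes at -0.154 to 0.203 in their deviations, and at 0.131 in the proximal tubule. With 1 difference per group such a correlation cannot decide it. With predicted doublets kept, 5 values in S3 reversed: Slc6a20a 0.083, Slc7a8 0.28, Slc7a7 0.18, Slc16a10 0.016 and Slc38a9 0.23. Over all named pairs, 330 alternative values stayed on their side of the threshold with the same direction, 109 were lost, 36 gained and 5 reversed. Between 11 and 14 carriers were highest in the proximal tubule under every alternative. Counts of 1 to 48 UMIs per library limit Slc7a2 and Slc1a3 in macrophages.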

Other observations

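Stress and nutrient-sensing genes of the early proximal tubule were also read by list. Of the 17 ATF4 amino acid stress genes tested in S1-S2 1 was higher and 5 were lower under BPTES by edgeR's test, with a median log2 fold change of -0.21, beside -0.00 over all genes and 12.1% of genes passing. Asparagine synthetase, Asns, was at 0.563 and 0.681 CPM against 1.58 and 1.21 CPM (-1.17, SE 0.25, adjusted p = 0.0329). The stress factors Atf3 (-0.92, adjusted p = 0.0265) and Cebpb (-0.62, adjusted p = 0.0130), the leucine sensor Sesn2 (-0.57, adjusted p = 0.0253) and the translation repressor Eif4ebp1 (-0.43, adjusted p = 0.0366) fell as well. The lipoprotein receptor gene Vldlr rose (0.43, adjusted p = 0.0489). The neutral carrier Slc6a15 was among the 12 other plasma membrane carriers and partners tested there, and it rose (0.43, adjusted p = 0.0351). In S3 the glutamine synthetase gene Glul was at 199 and 203 CPM against 154 and 131 CPM and rose (0.50, adjusted p = 0.0209), 1 of 15 glutamine and glutamate enzymes tested, where 10.9% of all genes passed. Without the second BPTES library, Asns (-1.31), Atf3 (-0.90), Sesn2 (-0.46), Eif4ebp1 (-0.37), Slc6a15 (0.37) and Vldlr (0.30) did not pass in S1-S2, and Cebpb did (-0.61). Asns (-1.04) did not without the first BPTES library, nor Eif4ebp1 (-0.40), Slc6a15 (0.34) and Vldlr (0.32) without the first DMSO library. Glul in S3 did not without the second DMSO library (0.39). Without cluster 1, 2 genes of any kind passed in S1-S2. The log2 fold changes were then -1.11 for Asns, -0.85 for Atf3, -0.46 for Cebpb, -0.41 for Sesn2, -0.28 for Eif4ebp1, 0.45 for Vldlr and 0.25 for Slc6a15. In S1-S2 the 6 macrophage markers summed to 17.2 and 13.1 CPM under BPTES and 28.6 and 32.6 CPM under DMSO, the 7 S3 markers to 156 and 112 CPM against 188 and 200 CPM, and Malat1 was at 35247 and 35427 CPM against 27355 and 30235 CPM. The 6 S1-S2 markers summed to 7230 and 7382 CPM against 6526 and 6420 CPM there. Their part in these values was not tested.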
